A study of Homo sapiens with 18 samples.

Results

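DNA replication and S phase genes were followed across 3 human cell lines in normoxia and hypoxia. They are 47 genes of the 23106 gene symbols in the count files, chosen by name for their roles in copying the genome. No rule on measured values was used, but the choice was made with earlier results of these data known. The study sequenced polyadenylated RNA from the lines HKC-8, RCC4 and HepG2 beside its maps of where hypoxia-inducible factor (HIF) binds chromatin, with 3 samples per condition and 18 in all. HKC-8 is an immortalized line of renal proximal tubule cells, RCC4 comes from a clear cell renal carcinoma and HepG2 from a hepatocellular carcinoma. HKC-8 and HepG2 cells were kept in normoxia or in hypoxia labelled 16 h at 0.5% oxygen. The titles of the HKC-8 samples read 21 for normoxia and 0.1 for hypoxia. All RCC4 samples, normoxic and hypoxic, are labelled RCC4+VHL, that is, with the VHL gene put back into cells that lack a working copy, and their hypoxia is labelled 24 h at 1% oxygen. The study describes a single exposure of all lines for its RNA-seq, so the exposure of RCC4 cells is uncertain, as is the oxygen level of the HKC-8 cells. VHL marks HIF for destruction when oxygen is present. How VHL was introduced, its promoter and whether the line is a single clone are not given in the sources used here. Each cell type is represented by a single line, and nothing in the labels says that the 3 samples of a group came from separate cultures, so p-values measure the spread between these samples only.

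Replication starts at origins that the origin recognition complex (ORC) marks. In G1, CDC6 and CDT1 load the ring-shaped MCM2-7 helicase there, and at the start of S phase CDC7 kinase, MCM10, CDC45 and the GINS complex switch it on. Polymerase alpha with primase then lays down primers, the RFC complex loads the PCNA clamp, polymerases delta and epsilon extend the strands, and replication protein A (RPA) coats single-stranded DNA. E2F factors and cyclin E drive entry into S phase, and most of these genes are E2F targets whose RNA rises as cells pass from G1 to S. Cells short of oxygen are known to slow or stop DNA synthesis.

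All 47 genes passed the filter on low counts in each line. Their lowest count in a single sample was 350 for HKC-8, 428 for RCC4 and 268 for HepG2 cells, from totals of 75.4 M to 98.0 M counts per sample in HKC-8, 42.0 M to 51.8 M in RCC4 and 40.9 M to 48.4 M in HepG2. Of 10 genes known to be induced by hypoxia, 10 were called higher in HKC-8 and in HepG2 cells, and all 8 of them that could be tested in RCC4 cells. All 8 liver markers exceeded 1 CPM (1 count per M counts of the library) in HepG2 cells, with a summed level of 33822 to 35022 CPM in normoxia. Kidney markers over 1 CPM numbered 3 of 8 for HKC-8, 6 for RCC4 and 4 for HepG2 cells. This count therefore did not set HKC-8 apart from HepG2 cells. Normoxic PAX8 was at 168 CPM for HKC-8, 134 CPM for RCC4 and 9.53 CPM for HepG2 cells. Normoxic GGT1 was at 0.248, 169 and 30.2 CPM for these lines. LRP2 and CUBN, which mark the proximal tubule, were under 1 CPM in each line. Of 3 immune and 3 endothelial markers, PTPRC, CD3E and VWF stayed under 1 CPM in every group, and all 6 did in RCC4 cells. The immune marker CD14 was at 2.49 CPM in normoxic and 1.40 CPM in hypoxic HKC-8 cells and at 1.49 and 0.785 CPM in HepG2 cells, and was called lower in both. The endothelial markers CDH5 in HKC-8 cells (1.89 and 2.63 CPM) and PECAM1 in HepG2 cells (1.38 and 1.59 CPM) also exceeded 1 CPM, and VWF was called higher in HKC-8 cells at 0.108 and 0.406 CPM. The summed level of 4 fibroblast markers was 9.91 to 18.4 CPM in normoxic and 23.5 to 25.3 CPM in hypoxic HKC-8 cells, 44.4 to 50.1 and 60.6 to 63.9 CPM in RCC4 and 26.9 to 29.8 and 59.4 to 67.9 CPM in HepG2 cells. PDGFRB made up most of this sum in hypoxia, and COL1A2 and DCN were below 0.1 CPM in every group; the part of any of these cell types in the results was not tested. In HKC-8 cells, and to some extent in HepG2 cells, samples that share a replicate number deviated together. For HKC-8 cells, values from a fit with the number as a block are given beside the main ones.

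The start regions of the genes on which the results turn are shown first. The set of RefSeq promoters used here held a start site for 40 of the 47 genes. It had no entry for MCM4, MCM5, GINS4, POLD3, RPA2, RPA3 and CCNE2. The windows below run from 80 bases before the start to 20 after it on GRCh38.p14, 5' to 3' on the gene's own strand. Capitals mark an exact match, on either strand, to the E2F letters TTTCCCGC, TTTCGCGC, TTTGCCGC or TTTGGCGC. The first 5 genes were lower in hypoxia in all 3 lines:
POLE2 (chr14:49688195-49688294, minus strand): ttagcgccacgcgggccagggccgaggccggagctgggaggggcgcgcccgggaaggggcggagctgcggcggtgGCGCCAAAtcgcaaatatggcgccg
GINS2 (chr16:85688935-85689034, minus strand): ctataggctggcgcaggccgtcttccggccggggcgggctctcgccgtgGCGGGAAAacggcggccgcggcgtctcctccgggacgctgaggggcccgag
RFC3 (chr13:33818069-33818168, plus strand): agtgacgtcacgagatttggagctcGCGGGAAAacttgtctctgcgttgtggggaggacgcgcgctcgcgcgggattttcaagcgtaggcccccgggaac
ORC5 (chr7:104207994-104208093, minus strand): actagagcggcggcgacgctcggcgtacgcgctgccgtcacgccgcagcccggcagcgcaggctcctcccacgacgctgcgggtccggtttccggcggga
RFC5 (chr12:118016623-118016722, plus strand): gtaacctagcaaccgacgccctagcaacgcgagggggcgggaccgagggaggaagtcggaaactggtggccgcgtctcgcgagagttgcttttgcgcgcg
The next 4 had calls or sizes of change that differed between lines:
PCNA (chr20:5126603-5126702, minus strand): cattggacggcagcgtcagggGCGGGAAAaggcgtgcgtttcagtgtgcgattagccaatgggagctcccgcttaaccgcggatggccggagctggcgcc
E2F1 (chr20:33686366-33686465, minus strand): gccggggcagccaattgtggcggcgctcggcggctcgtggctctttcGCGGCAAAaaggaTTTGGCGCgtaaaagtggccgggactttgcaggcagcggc
POLE (chr12:132687323-132687422, minus strand): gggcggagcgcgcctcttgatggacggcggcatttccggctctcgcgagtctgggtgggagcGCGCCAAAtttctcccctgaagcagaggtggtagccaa
RFC1 (chr4:39366343-39366442, minus strand): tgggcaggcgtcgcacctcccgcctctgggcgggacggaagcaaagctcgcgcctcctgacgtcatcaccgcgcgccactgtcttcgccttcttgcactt
In the longer window of 250 bases before to 50 after the start, 19 of the 40 genes (47.5%) held the E2F letters, against 4.29% of 14345 promoters of genes in the files. The letters were in 13 of the 26 promoters of genes lower in hypoxia in at least 1 line and in 6 of 14 of the others. The CCAAT box (CCAAT, either strand) was in 57.5% of the 40 and in 36.4% of all. The core of the HIF site (ACGTG or GCGTG, either strand) was in 67.5% of the 40 and in 55.9% of all promoters. A match of letters is a description of the window and not a bound site, and these genes were picked as replication genes, many of them known E2F targets.

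In hypoxia more of these genes were lower than higher in every line, by small amounts. In HKC-8 cells 10 of 47 were called lower (21.3%, where 9.12% of all genes tested were) and 3 higher (6.38%, where 11.2% were). With the replicate block these became 22 lower and 5 higher, where 21.6% and 21% of all genes were. In RCC4 cells 20 were lower (42.6%, where 24.2% of all genes were) and 5 higher (10.6%, where 25.9% were). In HepG2 cells 20 were lower (42.6%, where 19.2% were) and 3 higher (6.38%, where 19.9% were). The median log2 fold change of the 47, hypoxia minus normoxia, was -0.14 for HKC-8, -0.08 for RCC4 and -0.14 for HepG2 cells, while the median of all genes tested lay between -0.0044 and 0.0036. No gene of the 47 changed 2-fold in any line. The largest fall was 1.48-fold for HKC-8, 1.50-fold for RCC4 and 1.65-fold for HepG2 cells, and the largest rise 1.35-fold, 1.50-fold and 1.21-fold. Scaling by total counts alone gave 4 higher and 31 lower in RCC4 cells and 0 higher and 29 lower in HepG2 cells, and moved the share of higher genes among all called genes from 51.7% to 33.0% and from 50.8% to 32.6%. In 1 fit of all 18 samples 8 genes were lower in RCC4 cells, in place of 20. That fit called 1419 of 15307 genes lower there, where the main fit called 3105 of 12811. In bulk samples, fewer cells in S phase and less RNA per cell cannot be told apart.

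Every hypoxic sample lay below every normoxic one for 21 of the 47 genes in HKC-8 cells, 22 in RCC4 and 24 in HepG2, where this held for 19.1%, 27.6% and 25.2% of all genes tested. The reverse held for 4, 5 and 4 of the 47, where it held for 20.0%, 28.8% and 24.8% of all genes. Together the 47 genes took 0.604%, 0.612% and 0.653% of the counts in normoxic HKC-8 samples and 0.600%, 0.569% and 0.574% in hypoxic ones. In RCC4 cells their share was 0.520% to 0.532% in normoxia and 0.473% to 0.485% in hypoxia. In HepG2 cells it was 0.421% to 0.435% and 0.355% to 0.367%. These shares of raw totals were thus lower in hypoxic samples in every line. The gap was narrowest in HKC-8 cells, where normoxic sample 1 and hypoxic sample 1 were close. Its width does not compare the lines. With total counts alone the typical gene also fell in HepG2 and RCC4 cells (median log2 fold change -0.097 and -0.085), but not in HKC-8 cells (0.012). Measured from these medians, that of the 47 lay at -0.140 for HepG2, -0.079 for RCC4 and -0.145 for HKC-8 cells.

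**Figure D1:**
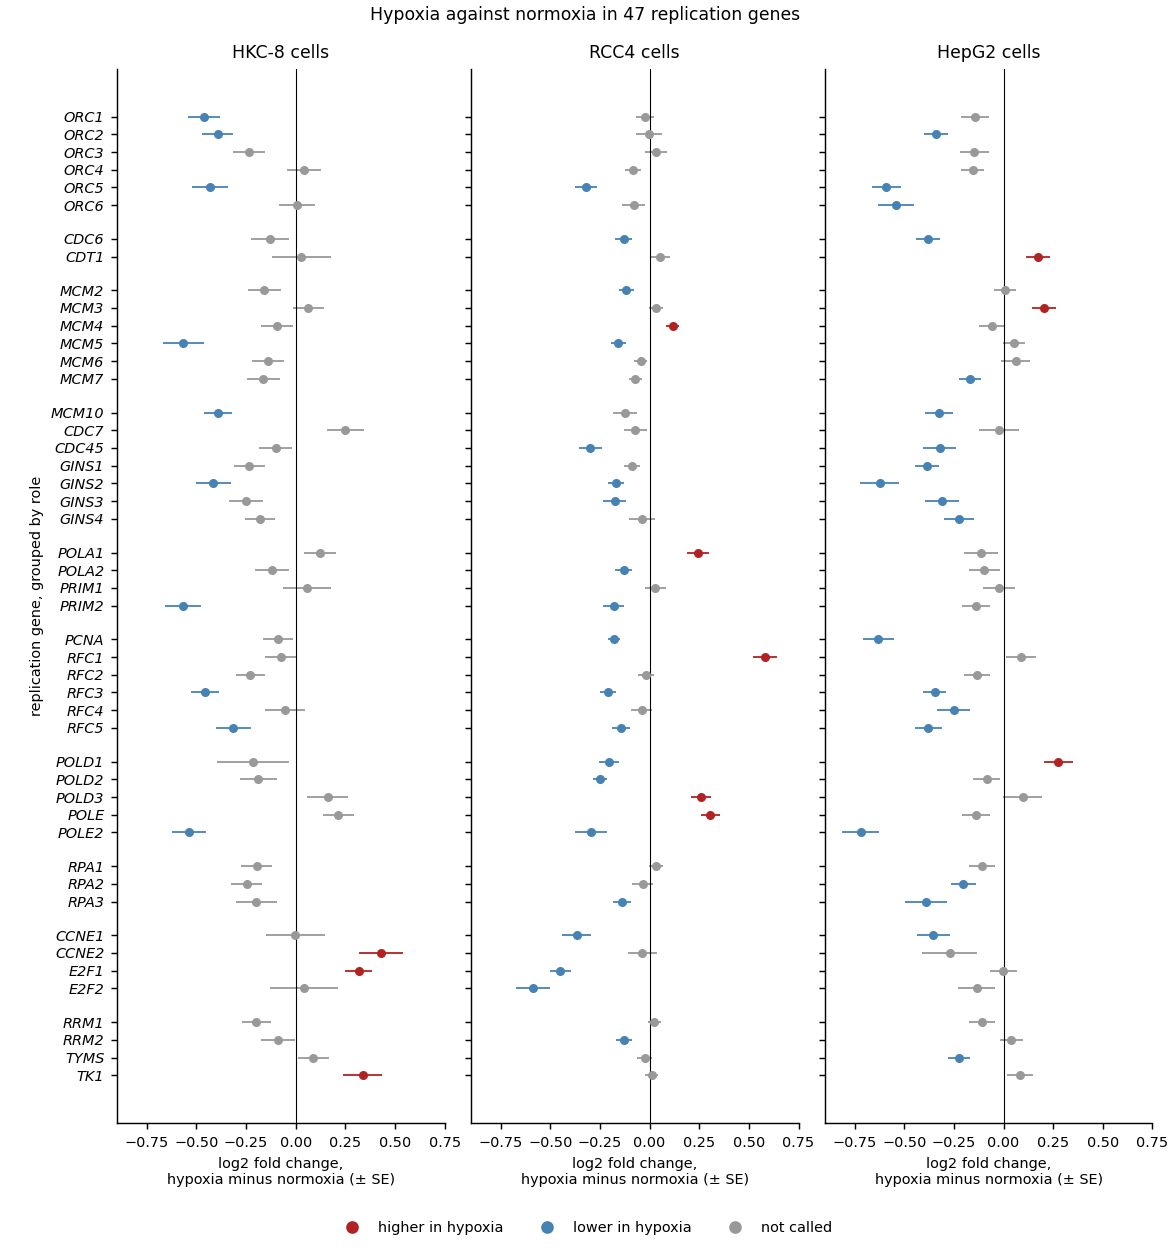
Log2 fold change (hypoxia minus normoxia) of the 47 replication genes in HKC-8, RCC4 and HepG2 cells, with bars of 1 SE from 3 samples per condition and rows grouped by role. Blue points (10, 20 and 20 genes) were called lower, red points (3, 5 and 3) higher at an edgeR adjusted p under 0.05, and grey points were not called; all points lie within 1 log2 unit of 0.

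Across the lines, 5 genes were lower in all 3, namely ORC5, GINS2, RFC3, RFC5 and POLE2, where 3.43% of the 11418 genes tested in all lines were. With the replicate block in HKC-8 cells GINS3 joined them, making 6, where 6.51% of all genes were. A further 10 genes were lower in exactly 2 lines and 13 in only 1 with no call elsewhere. The shares of all genes lower in exactly 2 lines or only 1 were not computed, so these counts have no background beside them. By the main fit 0 genes were higher in more than 1 line, and 9 were higher in 1 line with no call of the opposite sign. With the block in HKC-8 cells POLE was higher in 2 lines, HKC-8 and RCC4. E2F1 and POLD1 had opposite calls in different lines. The other 8, namely ORC3, ORC4, MCM6, CDC7, PRIM1, RFC2, RPA1 and RRM1, were called in none by the main fit. Shares of all genes were also not computed for higher calls in 2 lines or 1, opposite calls or no call.

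POLE2, an accessory subunit of the leading-strand polymerase epsilon, had the largest fall in HepG2 cells and fell in every line. In HKC-8 cells its level was 32.1, 32.7 and 32.2 CPM in normoxia and 22.1, 21.4 and 23.4 CPM in hypoxia. It was 13.7, 16.1 and 16.0 CPM and then 11.8, 13.1 and 12.4 CPM in RCC4, and 20.0, 21.3 and 18.1 CPM and then 12.3, 12.5 and 11.3 CPM in HepG2 cells. The groups did not overlap in any line. It fell by 31.1% in HKC-8 (edgeR adjusted p = 0.00386), 18.6% in RCC4 (adjusted p = 0.00346) and 39.3% in HepG2 cells (adjusted p = 4.26e-05), which are log2 fold changes of -0.54 ± 0.09, -0.30 ± 0.08 and -0.72 ± 0.09 (SE). The large catalytic subunit, POLE, did not move with it. POLE was at 137, 156 and 140 CPM in normoxic and 167, 173 and 163 CPM in hypoxic HKC-8 cells (0.21 ± 0.08, adjusted p = 0.0811, or higher at 0.0104 with the block), was higher in RCC4 cells (log2 fold change 0.31 ± 0.05, adjusted p = 1.12e-05) and was not called in HepG2 cells (-0.14 ± 0.07, adjusted p = 0.138).

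RFC3 and RFC5, small subunits of the clamp loader, also fell in every line. RFC3 was at 76.4, 77.4 and 77.1 CPM in normoxic and 53.5, 56.1 and 58.7 CPM in hypoxic HKC-8 cells. Its level in RCC4 cells was 84.7, 83.4 and 80.2 and then 69.8, 73.4 and 71.7 CPM, and in HepG2 cells 72.5, 73.3 and 74.0 and then 58.1, 59.3 and 55.5 CPM. No hypoxic sample reached a normoxic one. The fall of RFC3 was 27.1%, 13.4% and 21.4% in HKC-8, RCC4 and HepG2 cells (adjusted p = 0.00377, 0.000214 and 0.000434). RFC5 fell by 19.6% in HKC-8 (adjusted p = 0.036), 9.55% in RCC4 (0.00954) and 23.1% in HepG2 cells (0.000678), also with no overlap. Its call in HKC-8 cells was lost when any sample but normoxic replicate 3 was left out, with adjusted p up to 0.134, and was kept with the replicate block (adjusted p = 0.0023).

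ORC5, a subunit of the origin recognition complex, was at 42.9, 42.1 and 38.7 CPM in normoxic and 28.3, 30.3 and 33.0 CPM in hypoxic HKC-8 cells. Its level in RCC4 cells was 35.8, 36.7 and 36.5 and then 27.6, 30.9 and 28.8 CPM. In HepG2 cells it was at 32.2, 33.9 and 32.5 and then 20.5, 22.5 and 22.5 CPM. In each line every hypoxic sample was below every normoxic one. ORC5 fell by 25.8%, 19.9% and 33.6% (adjusted p = 0.0129, 3.77e-05 and 3.18e-05). GINS2, part of the complex that joins CDC45 to the helicase, fell by 24.96% in HKC-8 (adjusted p = 0.0121), 11.1% in RCC4 (0.00131) and 35.1% in HepG2 cells (0.000255). Its normoxic HepG2 samples were spread from 73.5 to 104 CPM, while the hypoxic ones stood at 58.2, 58.1 and 59.0 CPM. In HKC-8 cells the call of ORC5 was lost without normoxic or hypoxic replicate 1 and that of GINS2 without normoxic replicate 1 or 2 or hypoxic replicate 1 (adjusted p up to 0.0683 and 0.0642), and both were kept with the block (0.00152 and 0.000398).

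**Figure D2:**
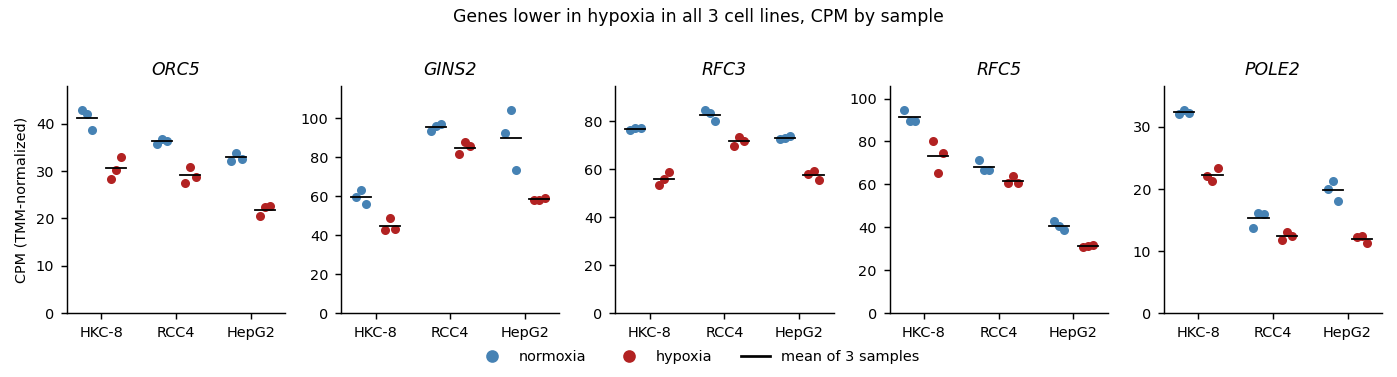
CPM (TMM-normalized within each cell line, axis from 0) of ORC5, GINS2, RFC3, RFC5 and POLE2 in each of the 18 samples, normoxia in blue and hypoxia in red, with black lines at the mean of 3. In every gene and line the 3 red points lie below the 3 blue ones; POLE2 in HepG2 cells fell by 39.3%.

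The other origin recognition genes did not move as ORC5 did. ORC1, the subunit with the most cell cycle-dependent expression, fell in HKC-8 cells, from 75.5, 85.0 and 75.5 CPM to 57.0, 60.0 and 54.4 CPM (log2 fold change -0.46 ± 0.08, adjusted p = 0.00614). It was not called in RCC4 (-0.02 ± 0.05) or HepG2 cells (-0.14 ± 0.07, adjusted p = 0.125). ORC2 fell in HKC-8 (-0.39 ± 0.08, adjusted p = 0.00937) and HepG2 cells (-0.34 ± 0.06, adjusted p = 0.000639), and was level in RCC4 cells at -0.0028. Its HKC-8 call was lost without normoxic replicate 1 (adjusted p = 0.0544). ORC6 fell by 31.2% in HepG2 cells, from 53.9, 63.6 and 49.2 CPM to 37.4, 41.1 and 36.1 CPM, and was at 0.01 ± 0.09 in HKC-8 cells. ORC3 and ORC4, which form part of the core of the complex, were between -0.24 and 0.04 on the log2 scale in the 3 lines without a call, though ORC3 was called lower in HKC-8 cells with the block (adjusted p = 0.00718).

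Of the helicase loaders, CDC6 fell by 8.70% in RCC4 (adjusted p = 0.0111) and by 23.3% in HepG2 cells, from 134, 127 and 130 CPM to 93.6, 105 and 102 CPM (adjusted p = 0.000287). In HKC-8 cells it was at -0.13 ± 0.10 with overlapping groups. CDT1, whose protein is degraded in S phase, was higher in HepG2 cells only, at 51.9, 52.1 and 51.7 CPM in normoxia and 61.5, 56.4 and 57.6 CPM in hypoxia (0.17 ± 0.06, adjusted p = 0.0377). That call was lost with total-count scaling, without the low-count filter, in the fit of all 18 samples and without any of 4 samples (normoxic replicate 1 and each hypoxic replicate), and a correction for transcript length and GC content turned the value to -0.10.

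The 6 subunits of the MCM2-7 helicase, which act as a single ring, did not move as a block. MCM5 fell most, in HKC-8 cells, from 186, 205 and 173 CPM to 117, 144 and 120 CPM (-0.57 ± 0.10, adjusted p = 0.00691). In RCC4 cells it fell by 10.3% (adjusted p = 0.000852), and in HepG2 cells it was at 0.05 ± 0.05. MCM3 was higher in HepG2 cells, from 349, 325 and 315 CPM to 381, 380 and 377 CPM (0.20 ± 0.06, adjusted p = 0.0159), and MCM4 in RCC4 cells, from 277, 284 and 265 CPM to 301, 297 and 297 CPM (0.12 ± 0.03, adjusted p = 0.00681). Both calls were lost with total counts alone, that of MCM3 without hypoxic replicate 1 or 2 (adjusted p up to 0.152) and that of MCM4 without normoxic replicate 3 or with the length and GC correction (up to 0.438). MCM2 fell by 7.77% in RCC4 and MCM7 by 11.1% in HepG2 cells (adjusted p = 0.00958 and 0.0243). With the block in HKC-8 cells MCM2 and MCM7 were also called lower (adjusted p = 0.0354 and 0.0318). MCM6 was called in no line.

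Of 7 genes that activate the helicase, 6 were called lower in HepG2 cells, where 19.2% of all genes were, 2 in HKC-8 cells (9.12% of all genes; 5 with the block, where 21.6% were) and 3 in RCC4 cells (24.2% of all genes). The change of 0 of the 7 differed between HKC-8 and HepG2 cells by edgeR, with or without the block, and 0 at an unadjusted p under 0.05. CDC45 fell in HepG2 cells from 27.2, 28.5 and 25.0 CPM to 20.4, 20.98 and 23.2 CPM (-0.32 ± 0.08, adjusted p = 0.00703). In RCC4 cells it fell from 33.8, 34.2 and 33.1 CPM to 27.7, 29.0 and 25.6 CPM (-0.30 ± 0.06, adjusted p = 0.000124). MCM10, which helps the helicase to open DNA, fell in HKC-8 (-0.39 ± 0.07, adjusted p = 0.00602) and HepG2 cells (-0.32 ± 0.07, adjusted p = 0.00268). The 4 GINS genes were all lower in HepG2 cells, by 23.5% (GINS1), 35.1% (GINS2), 19.4% (GINS3) and 14.3% (GINS4), and with the block they were all lower in HKC-8 cells too. CDC7, the kinase that starts origin firing, was not called lower in any line. It was at 90.5, 83.9 and 94.9 CPM in normoxic and 118, 94.8 and 108 CPM in hypoxic HKC-8 cells (0.25 ± 0.09, adjusted p = 0.0915, or 0.00823 with the block), and at -0.07 and -0.02 in RCC4 and HepG2 cells.

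Of the primer-making complex, PRIM2, the large primase subunit, had the largest fall of the 47 in HKC-8 cells, from 49.5, 49.0 and 54.0 CPM to 35.2, 31.4 and 36.3 CPM (-0.57 ± 0.09, adjusted p = 0.00366). It fell by 11.7% in RCC4 cells (adjusted p = 0.00689) and was not called in HepG2 cells (-0.14 ± 0.07, adjusted p = 0.129). PRIM1, the catalytic primase subunit, lay between -0.02 and 0.06 in the 3 lines. POLA1, the catalytic subunit of polymerase alpha, was higher in RCC4 cells, from 29.8, 31.8 and 29.2 CPM to 34.4, 36.3 and 36.9 CPM (0.24 ± 0.05, adjusted p = 0.000655), while its partner POLA2 fell there by 8.67% (adjusted p = 0.0151). The call of POLA1 was lost with the length and GC correction (adjusted p = 0.0606). PRIM2 has a partial near-identical duplicate in the human genome and PCNA has processed pseudogenes, so both can lose reads when fragments that map to several places are removed.

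PCNA, the sliding clamp and the most abundant of the 47 per kb of transcript, fell by 35.4% in HepG2 cells, from 570, 668 and 531 CPM to 367, 392 and 384 CPM (-0.63 ± 0.08, adjusted p = 3.87e-05). In RCC4 cells it fell by 11.7%, from 459, 451 and 468 CPM to 396, 417 and 403 CPM (adjusted p = 7.42e-05). In HKC-8 cells its groups overlapped, at 258, 263 and 268 CPM and then 259, 251 and 232 CPM (-0.09 ± 0.08, adjusted p = 0.44). RFC1, the large clamp loader subunit, showed the largest rise of the 47 genes and in RCC4 cells only, from 32.3, 34.2 and 28.0 CPM to 48.6, 45.0 and 48.1 CPM, which is 1.50-fold (0.58 ± 0.06, adjusted p = 3.52e-08). It was at -0.07 ± 0.08 in HKC-8 and 0.09 ± 0.08 in HepG2 cells. RFC4 fell by 16.0% in HepG2 cells (adjusted p = 0.0264), and RFC2 was called only in HKC-8 cells with the block, where it was lower (adjusted p = 0.0082).

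Subunits of polymerase delta, which extends the lagging strand, moved in different directions in RCC4 cells. There POLD2 fell by 15.8%, from 226, 241 and 231 CPM to 198, 199.9 and 190.0 CPM (adjusted p = 4.13e-06), and the catalytic POLD1 by 13.2% (adjusted p = 0.00118), while POLD3 was higher, from 39.1, 38.3 and 40.0 CPM to 45.7, 49.2 and 45.3 CPM (0.26 ± 0.05, adjusted p = 0.000147). In HepG2 cells POLD1 was higher, from 37.6, 37.8 and 32.4 CPM to 43.1, 43.7 and 43.8 CPM (0.28 ± 0.07, adjusted p = 0.0089). With the correction for length and GC content the HepG2 value was -0.0045, and with total counts alone it was not called. In HKC-8 cells POLD1 followed the replicate number, at 43.3, 39.6 and 27.8 CPM in normoxia and 33.1, 36.8 and 25.4 CPM in hypoxia, with sample 3 lowest in both. It was not called there by the main fit (adjusted p = 0.432) and was called lower with the block (0.0417).

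The 3 RPA genes had log2 fold changes below 0 in HKC-8 and HepG2 cells. RPA3, the smallest subunit, fell by 9.06% in RCC4 (adjusted p = 0.0157) and by 23.8% in HepG2 cells (adjusted p = 0.00962), where its normoxic samples were spread from 40.4 to 57.4 CPM. RPA2 fell by 13.2% in HepG2 cells (adjusted p = 0.0208) and was just outside the threshold in HKC-8 cells (-0.25 ± 0.08, adjusted p = 0.0509, or 0.0107 with the block). RPA1 was not called by the main fit in any line and was lower in HKC-8 cells with the block (adjusted p = 0.0147).

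Of the E2F and cyclin E genes, which lie upstream of the others, E2F1 had opposite calls in HKC-8 and RCC4 cells. It was at 64.5, 65.8 and 66.8 CPM in normoxic and 83.7, 83.2 and 78.6 CPM in hypoxic HKC-8 cells, a rise (0.32 ± 0.07, adjusted p = 0.0143). In RCC4 cells it fell, from 60.3, 62.2 and 54.1 CPM to 41.8, 42.5 and 45.0 CPM (-0.45 ± 0.05, adjusted p = 2.04e-07), and in HepG2 cells it stood at 51.6, 48.2 and 44.9 CPM and then 48.5, 49.9 and 46.3 CPM. E2F2 fell in RCC4 cells by 33.4%, the largest fall of the 47 there, from 14.1, 13.9 and 12.1 CPM to 9.24, 8.67 and 8.79 CPM (adjusted p = 4.78e-06). CCNE1 fell by 22.4% in RCC4 and 21.7% in HepG2 cells (adjusted p = 0.000201 and 0.00414) and was at 4.39 to 5.58 CPM with overlapping groups in HKC-8 cells. CCNE2 was higher in HKC-8 cells, from 42.2, 43.5 and 51.7 CPM to 70.0, 56.7 and 58.5 CPM (0.43 ± 0.11, adjusted p = 0.0277). The HKC-8 call of E2F1 was lost without normoxic replicate 1 or 2 or hypoxic replicate 1, and that of CCNE2 without any of these or hypoxic replicate 3; both were kept with the block (0.00161 and 0.00384). With the length and GC correction E2F1 was at 0.12 in HKC-8 cells and not called (adjusted p = 0.24).

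Of the 4 genes of nucleotide supply, 1 was called in each line by the main fit. Of all genes, 20.4%, 50.1% and 39.1% were called in either direction in HKC-8, RCC4 and HepG2 cells. TK1, thymidine kinase, was higher in HKC-8 cells, from 166, 194 and 191 CPM to 228, 257 and 212 CPM (0.34 ± 0.10, adjusted p = 0.0402), a call lost without normoxic replicate 1 or 2 or hypoxic replicate 1 or 2 and with the correction for length and GC content. It was at 0.01 and 0.08 in RCC4 and HepG2 cells. RRM2, the regulated subunit of ribonucleotide reductase, fell by 8.58% in RCC4 cells (adjusted p = 0.00731) and was not called elsewhere. RRM1 was called only in HKC-8 cells with the block (lower, adjusted p = 0.0141). TYMS, thymidylate synthase, fell by 14.5% in HepG2 cells, from 93.8, 89.6 and 89.3 CPM to 79.2, 76.4 and 77.7 CPM (adjusted p = 0.00629). In the GENCODE annotation 39.9% of its exon bases overlap ENOSF1 on the opposite strand, and 37.0% of those of CCNE2 overlap INTS8. The strand setting of the counting is not given in the sources used here, so reads of these pairs may not be separated. Of the other members 8 share at most 8.19% of their exon bases with another coding gene of the files.

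The size of the change was then compared between lines by the interaction of line and oxygen. HKC-8 and HepG2 cells share an exposure in 1 label, but hypoxic HKC-8 samples carry 0.1 in their titles, so a difference in oxygen level and a difference between lines cannot be told apart here either. Between them 6 genes differed, where 9.30% of all genes did. The change was more positive in HKC-8 cells for ORC6, PCNA, POLE and CCNE2 (4 genes, where 4.28% of all genes were) and more negative for MCM5 and PRIM2 (2 genes, where 5.02% were). The difference was 0.54 ± 0.14 for ORC6, 0.54 ± 0.11 for PCNA and -0.62 ± 0.12 for MCM5 on the log2 scale (adjusted p = 0.0207, 0.0072 and 0.0040). With the replicate number of each line as a block 10 genes differed, 6 more positive and 4 more negative in HKC-8 cells, where 9.06% and 11.0% of all genes did; E2F1, TYMS, ORC1 and POLD1 were added.

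RCC4 cells were labelled with another oxygen level and duration, so line and exposure cannot be told apart in the comparisons with them. Between HKC-8 and RCC4 cells 8 genes differed, where 15.2% of all genes did. E2F1 differed by 0.78 ± 0.09 (adjusted p = 0.000111), up in HKC-8 and down in RCC4 cells, and CCNE2 and TK1 were also more positive in HKC-8 cells (3 genes, where 7.29% of all genes were). ORC1, ORC2, MCM5, PRIM2 and RFC1 were more negative in HKC-8 cells (5 genes, where 7.87% were), RFC1 by -0.64 ± 0.11 (adjusted p = 0.00248). With the block these 3 and 5 genes became 5 and 12, where 13.3% and 15.3% of all genes were called. Between HepG2 and RCC4 cells 17 genes differed, where 22.6% of all genes did. The change was more negative in HepG2 cells for 13 (ORC2, ORC5, ORC6, CDC6, GINS1, GINS2, POLA1, PCNA, RFC1, RFC5, POLE, POLE2 and TYMS), where 10.9% of all genes were, and more positive for MCM5, POLD1, E2F1 and E2F2, where 11.7% were. POLD1 had opposite calls in these lines, and the difference was 0.49 ± 0.09 (adjusted p = 0.000504). Of the 5 genes lower in all lines, RFC3 was not called in any of the 3 comparisons of lines by the main fit. With the block its change was more negative in HKC-8 than in RCC4 cells (edgeR adjusted p = 0.022).

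**Figure D3:**
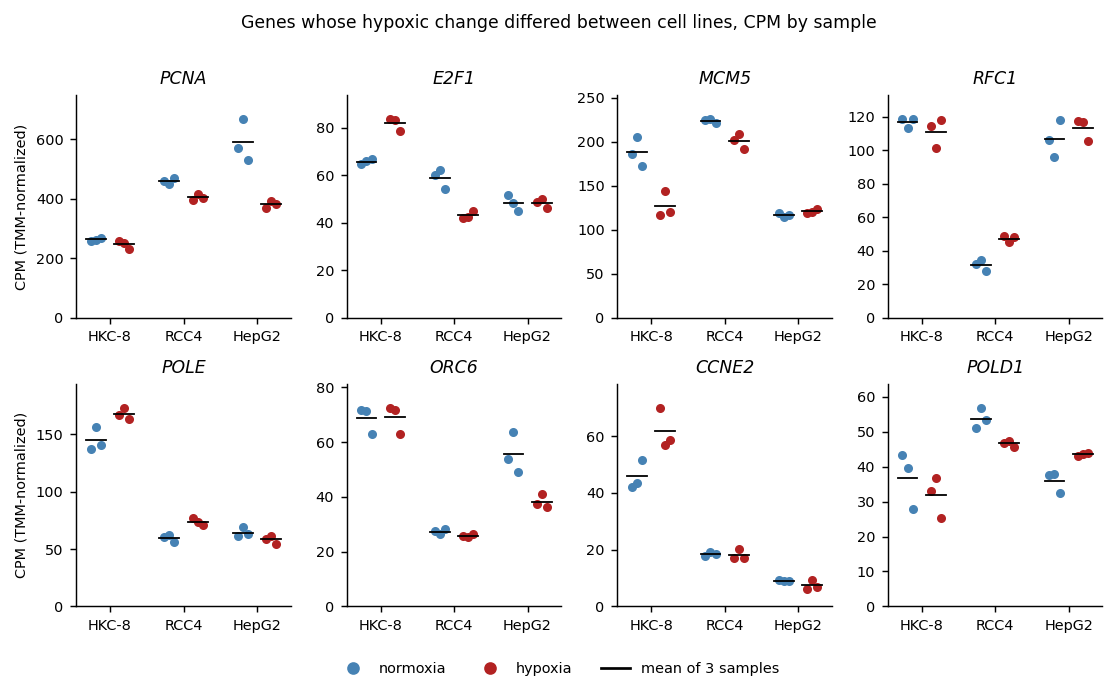
CPM (TMM-normalized within each cell line, axis from 0) of 8 genes whose hypoxic change differed between lines, in each of the 18 samples, normoxia in blue, hypoxia in red and black lines at the mean of 3. PCNA and ORC6 fell in HepG2 cells while their HKC-8 samples overlapped, E2F1 was higher in hypoxic HKC-8 and lower in hypoxic RCC4 samples, and RFC1 was higher in hypoxia in RCC4 samples.

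In normoxia most of these genes were lower in HepG2 and RCC4 than in HKC-8 cells. Per kb of the longest transcript, the median level of the 47 was 26.0 CPM for HKC-8, 20.8 CPM for RCC4 and 19.9 CPM for HepG2 cells. PCNA ranked first of 47 in every line, at 190, 348 and 454 CPM per kb for HKC-8, RCC4 and HepG2 cells, and CCNE1 was lowest in HKC-8 (2.50) and E2F2 in RCC4 (2.65) and HepG2 cells (2.75). Relative to HKC-8 cells, 26 genes were lower and 13 higher in RCC4 cells, where 41.4% and 39.4% of all genes tested were, and 33 were lower and 8 higher in HepG2 cells, where 40.5% and 42.6% were. Relative to RCC4 cells 24 were lower and 15 higher in HepG2 cells, where 38.1% and 45.3% were. In either direction 80.8%, 83.0% and 83.3% of all genes differed in these 3 comparisons. The largest normoxic differences between lines as a ratio of CPM were those of CCNE1, at 4.89 ± 0.38 in HKC-8 and 30.4 ± 1.9 in HepG2 cells (SD, n = 3), CDC7, at 88.1 ± 5.7 and 16.2 ± 0.4, and CCNE2, at 45.0 ± 5.2 and 9.55 ± 0.17. ORC2 and RFC1 were low in RCC4 cells alone, at 22.4 ± 1.4 and 32.5 ± 3.5 CPM, against 93.8 ± 5.0 and 115 ± 3 CPM in HKC-8 cells and 91.1 ± 1.1 and 112 ± 12 CPM in HepG2 cells. RFC3 differed little, at 75.5 ± 0.4, 85.3 ± 3.0 and 76.8 ± 0.9 CPM in HKC-8, RCC4 and HepG2 cells. Sequencing depth goes with the line, and these values compare 3 single lines.

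**Figure D4:**
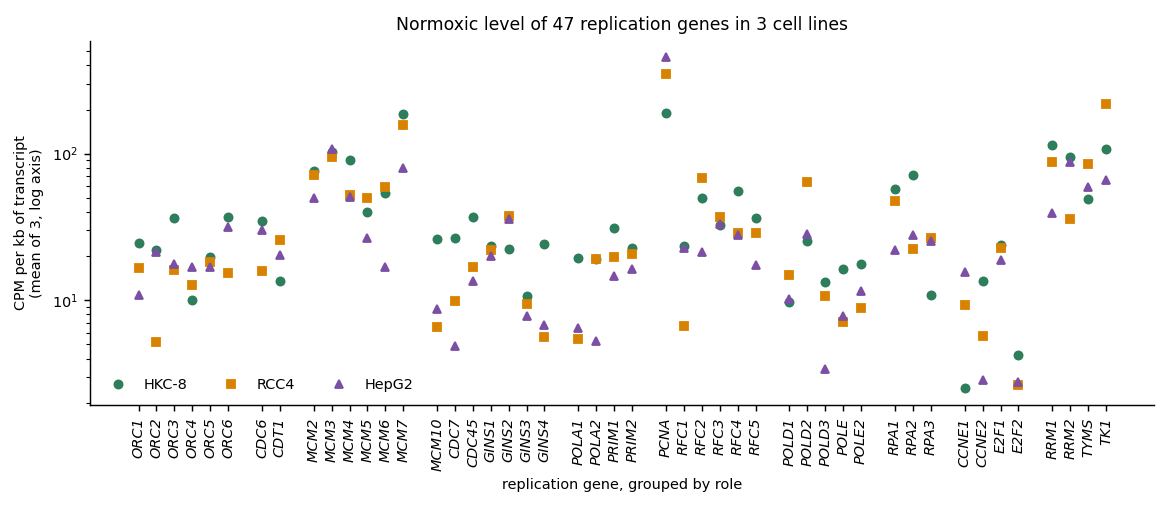
Normoxic level of each of the 47 genes as CPM per kb of its longest transcript (log axis, mean of 3 samples) in HKC-8 (circles), RCC4 (squares) and HepG2 cells (triangles), grouped by role. PCNA tops all lines (190, 348 and 454), the MCM2-7 genes and those of nucleotide supply are mostly in the upper part, and E2F2 is among the lowest in every line.

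Genes beyond the 47 were read as lists of the same pathway and of the phases around it. None of their members reached a 2-fold change with a call, so those named here beside CDKN1A, CDKN1B, CCND1, CCNA2 and MKI67 were chosen after their values were seen, because their list had 5 or fewer calls of that sign. The counts of each list stand against 11.2%, 25.9% and 19.9% of all genes called higher in HKC-8, RCC4 and HepG2 cells, and 9.12%, 24.2% and 19.2% called lower (21% and 21.6% in HKC-8 cells with the block). For the G1/S regulators below, the share called in HKC-8 cells was 8% in each direction, under that of all genes. Of 23 other replication factors, 4 were lower in HKC-8 cells (TIPIN, POLE3, DSCC1 and GMNN) and 1 higher (TICRR), 8 were lower and 6 higher in RCC4 cells, and 11 were lower and 0 higher in HepG2 cells. With the HKC-8 block these were 9 lower and 2 higher. Of 10 genes of nucleotide metabolism, SAMHD1, which breaks down deoxynucleotides, was lower in HKC-8 cells and 0 were higher (3 lower and 2 higher with the block). In RCC4 cells 3 of them were lower (CTPS1, SAMHD1 and NME1) and 3 higher, DUT and SLC29A1 among them, and in HepG2 cells 5 were lower (SAMHD1, DTYMK, DCK, CTPS1 and NME1). Of 8 chromatin assembly genes, the histone chaperone ASF1A was lower in all lines, with log2 fold changes of -0.77 ± 0.08, -0.22 ± 0.05 and -0.34 ± 0.08 in HKC-8, RCC4 and HepG2 cells (adjusted p = 0.00054, 0.000407 and 0.00343), and the others called were also lower (NASP in HKC-8, NASP and CHAF1A in RCC4, SLBP in HepG2 cells).

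The mitosis list did not move with the replication genes in RCC4 cells. There 10 of its 20 genes were higher and 6 lower. In HKC-8 cells 0 were higher and 5 lower (CDC20, CCNB1, AURKA, TTK and KIF20A; 1 higher and 12 lower with the block), and in HepG2 cells 1 was higher (CENPF) and 10 lower. The median log2 fold change of this list was -0.21 for HKC-8, 0.14 for RCC4 and -0.16 for HepG2 cells, beside -0.14, -0.08 and -0.14 for the 47. MKI67, which marks cycling cells, was not called in any line. It was at 452, 504 and 414 CPM in normoxic and 511, 566 and 576 CPM in hypoxic HKC-8 cells (0.27 ± 0.10, adjusted p = 0.0735), and at -0.13 ± 0.09 and 0.09 ± 0.08 in RCC4 and HepG2 cells.

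Of 26 regulators of the G1/S step, 2 were higher and 2 lower in HKC-8 cells (25 tested; 5 and 9 with the block), 6 and 10 in RCC4 (24 tested) and 3 and 10 in HepG2 cells (25 tested). CDKN1A, which encodes the cell cycle inhibitor p21, was higher in hypoxic HKC-8 cells, from 17.4, 13.2 and 15.1 CPM to 35.2, 23.1 and 20.0 CPM (0.78 ± 0.20, adjusted p = 0.0282). It fell in RCC4 cells from 170, 172 and 171 CPM to 128, 124 and 131 CPM (adjusted p = 8.98e-10), and in HepG2 cells by 35.9% (adjusted p = 1.82e-05). E2F7, a repressor among the E2F factors, was higher in all lines (log2 fold changes 0.76 ± 0.11, 0.34 ± 0.06 and 0.50 ± 0.09 in HKC-8, RCC4 and HepG2 cells), and CDC25A, a phosphatase that releases CDK2, was lower in all (-0.35 ± 0.10, -0.26 ± 0.06 and -0.46 ± 0.09). CCNA2, the S phase cyclin, fell by 19.7% in HKC-8 and 16.8% in HepG2 cells (adjusted p = 0.0264 and 0.00341) and was level in RCC4 cells at -0.0020. CCND1 was higher in HepG2 cells (0.39 ± 0.06, adjusted p = 0.000344), as was CDK6, and CDKN1B was not called in any line.

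**Figure D5:**
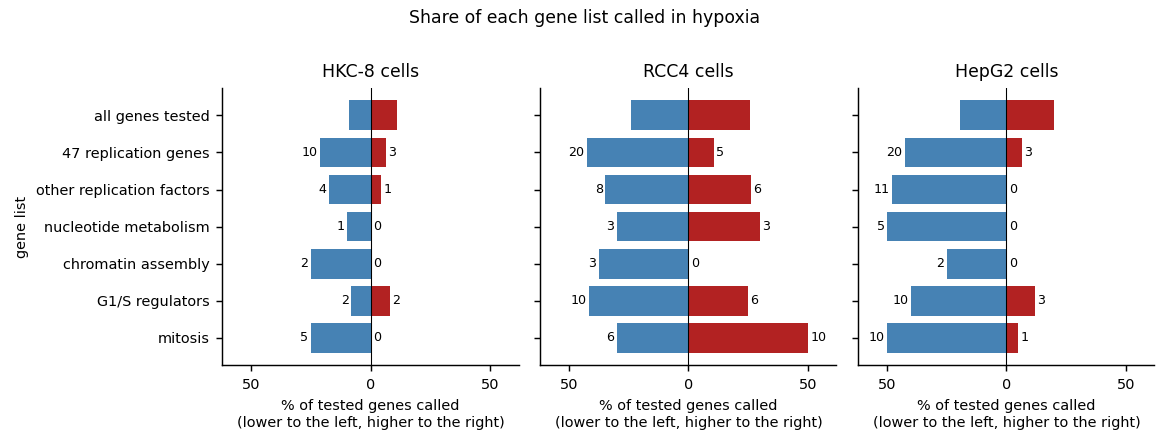
Percent of the tested genes of each list that were called higher (red, right) or lower (blue, left) in hypoxia in each line, with the number of genes at the bar ends and all genes tested as the top bar. The 47 replication genes reached 21.3%, 42.6% and 42.6% lower against 9.12%, 24.2% and 19.2% of all genes, while the mitosis list in RCC4 cells had 10 genes higher and 6 lower.

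Transcript length moved with the sign of change in all 3 lines, over all genes most widely in RCC4 cells. Over all genes tested there, the third with the shortest transcripts had a median log2 fold change of -0.08 and the third with the longest 0.10. These medians were -0.05 and 0.03 in HKC-8 cells and -0.07 and 0.05 in HepG2 cells. The 20 replication genes that fell in RCC4 cells had a median transcript of 2659 bases, and the 5 that were higher (RFC1, POLE, POLD3, POLA1 and MCM4) one of 5442 bases. In HepG2 cells the 20 that fell had a median of 2189 bases and the 3 that were higher one of 3208. In HKC-8 cells it was 2538.5 bases for the 10 that fell and 2690 for the 3 that were higher. With an offset for transcript length and GC content 23 were lower and 5 higher in RCC4 cells, 19 and 2 in HKC-8 and 26 and 1 in HepG2 cells. Of all genes 28.5% were then lower and 21.6% higher in RCC4, 17.1% and 9.68% in HKC-8 and 27.8% and 16.2% in HepG2 cells. The correction moved the median of all genes to -0.03 for RCC4, -0.07 for HKC-8 and -0.07 for HepG2 cells, and that of the 47 genes to -0.10, -0.19 and -0.19. The 3 genes higher in HepG2 cells had a median GC content of 63.9%, and the 47 one of 45.9%. In HKC-8 cells it was 43.5% for the 10 that fell and 61.6% for the 3 that were higher. In RCC4 cells it was 47.3% for the 20 that fell and 42.6% for the 5 that were higher.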

How the data were processed

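PolyA+ RNA of HKC-8, RCC4+VHL and HepG2 cells was sequenced in 18 samples, 3 per cell line and oxygen condition. Per the labels and the study's methods, the authors trimmed reads with Trim Galore 0.3.3, aligned them to GRCh37 with TopHat2 2.0.8b and Bowtie 1.0.0, kept uniquely mapped fragments with SAMtools 0.1.19 and counted them per UCSC gene with HTSeq 0.5.4p3. They deposited raw counts per gene symbol, 1 file per sample, and the strand setting of the counting is not given in the sources used here. Totals were 40.9 M to 98.0 M counts per sample.

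Counts were tested in R 4.3.3 with edgeR 4.0.16 (quasi-likelihood test, filterByExpr, TMM scaling within each cell line, Benjamini-Hochberg adjustment over all genes tested, adjusted p under 0.05). The study used DESeq2; DESeq2 1.42.0 was run here as an alternative. Differences between lines were tested as the interaction of line and oxygen on the 12 samples of each pair of lines, and normoxic levels on the 9 normoxic samples. CPM are TMM-normalized. Other alternatives were median-of-ratios and total-count scaling, 1 fit of all 18 samples, 2 other low-count filters (none, and 10 counts in every sample), a replicate block and leaving out each sample. A correction for transcript length and GC content, which 89.6% to 89.9% of genes had, was added after seeing the data. In HKC-8 cells every same-numbered pair correlated over 0.1 in its deviations (0.109, 0.453 and 0.447), a pairing seen in the data and not stated in the labels. Normoxic sample 1 and hypoxic sample 2 correlated at 0.116, so the pairing of sample 1 was weak. Samples of a group differed by more than sampling noise. Scripts were tested on simulated data. Promoters came from RefSeq (GRCh38.p14), transcript lengths and overlaps from GENCODE on GRCh37.

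By rule all 47 genes are named, and of other lists CDKN1A, CDKN1B, CCND1, CCNA2 and MKI67 and called members changed at least 2-fold, of which there were 0. Other members of these lists were chosen after their values were seen. The members and lists were chosen with earlier results of these data known. The values of 1 gene of these lists are not reported here.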

Additional observations from a re-analysis of the deposited data

Results flagged for a closer look

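The genes below differed in hypoxic change between a pair of lines by a test of the interaction of line and oxygen (edgeR adjusted p under 0.05). Of the 47 genes 6 differed between HKC-8 and HepG2 cells, where 9.30% of all genes did, 8 between HKC-8 and RCC4 cells, where 15.2% did, and 17 between HepG2 and RCC4 cells, where 22.6% did. Values are log2 differences ± SE from 3 samples per group.

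Between HKC-8 and HepG2 cells, the change in HKC-8 minus that in HepG2 cells was more positive for CCNE2 (0.70 ± 0.19), ORC6 (0.54 ± 0.14), PCNA (0.54 ± 0.11) and POLE (0.35 ± 0.10). It was more negative for MCM5 (-0.62 ± 0.12) and PRIM2 (-0.43 ± 0.11). The adjusted p of these 6 genes lay between 0.00401 and 0.0483.

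Between HKC-8 and RCC4 cells, the change in HKC-8 minus that in RCC4 cells was more positive for E2F1 (0.78 ± 0.09), CCNE2 (0.49 ± 0.15) and TK1 (0.35 ± 0.10). It was more negative for RFC1 (-0.64 ± 0.11), ORC1 (-0.42 ± 0.09), MCM5 (-0.39 ± 0.11), ORC2 (-0.37 ± 0.10) and PRIM2 (-0.37 ± 0.11). The adjusted p of these 8 genes lay between 0.000111 and 0.0435.

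Between HepG2 and RCC4 cells, the change in HepG2 minus that in RCC4 cells was more positive for POLD1 (0.49 ± 0.09), E2F2 (0.46 ± 0.13), E2F1 (0.46 ± 0.09) and MCM5 (0.22 ± 0.06). It was more negative for RFC1 (-0.48 ± 0.11), ORC6 (-0.45 ± 0.11), GINS2 (-0.45 ± 0.12), PCNA (-0.44 ± 0.09), POLE (-0.44 ± 0.09), POLE2 (-0.41 ± 0.13), POLA1 (-0.35 ± 0.11), ORC2 (-0.33 ± 0.09), GINS1 (-0.29 ± 0.07), ORC5 (-0.26 ± 0.09), CDC6 (-0.24 ± 0.07), RFC5 (-0.22 ± 0.08) and TYMS (-0.19 ± 0.07). The adjusted p of these 17 genes lay between 0.000504 and 0.0475. With the replicate number of each line as a block, RFC5 and TYMS did not pass in the last comparison (adjusted p = 0.0559 and 0.0534).

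The exposure of RCC4 cells was labelled 1% oxygen for 24 h and that of the others 0.5% for 16 h, but hypoxic HKC-8 samples carry 0.1 in their titles, so line and exposure cannot be told apart in any of the 3 comparisons. The comparisons share samples and are not independent of each other.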

How the results depend on the processing

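For HKC-8 cells, where numbers pair the samples, the replicate block gave 22 lower and 5 higher in place of 10 and 3, and 1 fit of all 18 samples 20 and 5. Of all genes the block called 2919 lower and 2836 higher of 13536, and the fit of all samples 2510 and 2503 of 15307. For RCC4 cells that fit gave 8 lower in place of 20, where 1419 of 15307 genes were, and total counts alone 31, where 4651 of 12811 were. For HepG2 cells total counts gave 0 higher in place of 3, where 1978 of 13623 genes were, and the fit of all samples 1, where 2333 of 15307 were. The correction for length and GC content, chosen after seeing the data, gave 19 lower in HKC-8 cells (29 with the block) and 1 higher in HepG2 cells (1 higher and 31 lower with the block). Of all genes 17.1% were lower in HKC-8 cells, or 4296 of 13536 with the block. In HepG2 cells 16.2% were higher, and with the block 2574 were higher and 4340 lower of 13623. The correction also changed signs. It turned the sign in HepG2 cells of CDT1 (-0.097, with the block -0.096) and POLD1 (-0.0045, with the block -0.0042) and, with the block, of MCM2 (-0.13), MCM5 (-0.11) and TK1 (-0.12) and in HKC-8 cells of CDT1 (-0.21). For the difference between HKC-8 and HepG2 cells, total counts gave 1 more negative gene in place of 2 and the block 4. Of all 15046 genes 458 and 1656 were then more negative. Between HKC-8 and RCC4 cells, DESeq2 gave 9 more negative in place of 5, total counts 3, and the block 12 and 5 more positive in place of 3. Of all 14203 genes DESeq2 called 1472 more negative and total counts 644. The block called 2179 more negative and 1892 more positive. Between HepG2 and RCC4 cells, the fit of all samples gave 8 more negative in place of 13 and 1 more positive in place of 4. Of all 15307 genes 925 and 961 were so called in that fit. The cause of these shifts was not tested.

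Leaving out 1 sample gave 6 to 10 lower and 0 to 3 higher in HKC-8 cells (6 lower without normoxic replicate 1, and 0 higher without normoxic replicate 1 or 2 or hypoxic replicate 1). It gave 17 to 23 and 4 to 5 in RCC4 cells, and 15 to 22 and 1 to 3 in HepG2 cells (1 higher without hypoxic replicate 1 or 2). Over all genes these fits called 326 to 1489 lower and 687 to 1794 higher in HKC-8 cells. They called 2694 to 2894 lower and 2900 to 3099 higher in RCC4 cells, and 1890 to 2918 lower and 2205 to 2940 higher in HepG2 cells. For the differences it gave 1 to 2 more negative and 1 to 5 more positive between HKC-8 and HepG2 cells, 2 to 8 and 1 to 5 between HKC-8 and RCC4 cells (2 without RCC4 normoxic replicate 2), and 8 to 15 and 3 to 5 between HepG2 and RCC4 cells (8 without RCC4 hypoxic replicate 3 or HepG2 hypoxic replicate 1). Over all genes 481 to 932 were more negative and 430 to 1000 more positive between HKC-8 and HepG2 cells. These were 806 to 1517 and 667 to 1399 between HKC-8 and RCC4 cells. Between HepG2 and RCC4 cells they were 1301 to 1821 and 1454 to 1880. Normoxic counts moved little, with 25 to 27 lower and 12 to 14 higher in RCC4 than in HKC-8 cells, 32 to 34 and 7 to 8 in HepG2 than in HKC-8 cells, and 23 to 28 and 12 to 14 in HepG2 than in RCC4 cells. Over all genes 5885 to 6242 were lower and 5601 to 5875 higher in RCC4 than in HKC-8 cells. These were 5872 to 6268 and 5918 to 6372 in HepG2 than in HKC-8 cells. They were 5462 to 6017 and 6387 to 6835 in HepG2 than in RCC4 cells.

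Same-numbered pairs correlated at -0.010, 0.033 and 0.015 in RCC4 cells, where no pairing by number was seen. In HepG2 cells they correlated at 0.165, 0.062 and 0.184, above differently numbered pairs (-0.162 to 0.023), so some pairing was seen. The block gave 21 lower and 5 higher in RCC4 cells, and 21 lower and 3 higher in HepG2 cells. Of all genes 3143 were then lower and 3351 higher of 12811 in RCC4 cells. In HepG2 cells 2906 were lower and 2951 higher of 13623. The median SE of the 47 genes was 0.08 for HKC-8, 0.05 for RCC4 and 0.07 for HepG2 cells, so falls of a size called in RCC4 cells could miss the threshold in HKC-8 cells. DESeq2, median-of-ratios scaling and the other low-count filters left every other count of calls within 1.5 times its value.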
